A study of Homo sapiens with 6 samples.

Results

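The MAGE (melanoma antigen) genes were taken from the RNA-seq of H1299 cells by their symbols, as every gene named MAGE with a letter from A to H and a number, together with MAGEL2, NDN (necdin) and NDNL2 (now NSMCE3). This rule found 37 of the 26255 genes in the table. It used no measured value. Of the 37 genes, 26 are type I (13 MAGE-A, 10 MAGE-B and 3 MAGE-C) and 11 are type II, and 33 lie on the X chromosome. H1299 is a non-small cell lung cancer line. The study compared 3 libraries of H1299 cells carrying a control shRNA (shControl) with 3 libraries of H1299 cells carrying an shRNA against Ephexin1 (shEphexin1), a guanine nucleotide exchange factor encoded by NGEF, to ask how its depletion changes mRNA levels. Both shRNAs were expressed from pSilencer2.1-U6 plasmids in cells grown in serum. The paper's methods name the hygro form of the plasmid and state that stable knockdown cells were selected in hygromycin. The sample labels name the neo form instead, so the selection used for these cells is not settled here. The methods name no other treatment for the RNA-seq. The names of the 3 shEphexin1 libraries share a stem and may be repeats of 1 stable clone, so the p values measure the spread between these libraries, which may be technical.

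Type I MAGE genes are normally expressed in testicular germ cells, are silenced elsewhere by promoter DNA methylation, and are switched on in many tumours, where they give rise to antigens that T cells recognise. Type II genes are expressed in many normal tissues. Proteins of both types share the MAGE homology domain, through which they bind ubiquitin ligases, many of them of the RING type, and direct them to particular substrates.

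Expression was given as FPKM, a fragment count scaled to transcript length and to sequencing depth, so that levels can be compared between genes. The table held no read counts. The smallest steps of the low values gave an estimate of 9220000 to 14200000 fragments per library, with a fragment length of 200 bases assumed. NGEF was at 13.3, 11.7 and 16.4 FPKM in shControl replicates 1, 2 and 3 and at 9.81, 8.25 and 10.5 FPKM in shEphexin1. The groups did not overlap, but the log2 difference of -0.53 ± 0.16 (SE) had an adjusted p of 0.103 in limma. Among the markers of the cells, VIM was at 1979 to 2670 FPKM. The epithelial keratin gene KRT18 was at 67.6 to 109 FPKM in the control libraries and at 36.3 to 54.7 FPKM in the shEphexin1 libraries, KRT8 at 5.13 to 8.44 against 2.65 to 3.48 FPKM, and EPCAM at 0 to 0.0663 against 0.108 to 0.220 FPKM. The lung genes NAPSA, SFTPB and SFTPC reached 0.324, 0.312 and 0.125 FPKM, while CDH1, NKX2-1, the blood gene PTPRC and the germ cell gene DAZL were listed at 0 in all 6 libraries. The germ cell genes DDX4 and SYCP3 reached 0.0421 and 1.03 FPKM, and the fibroblast and endothelial genes COL1A1, DCN and PECAM1 at most 0.386, 0.693 and 0.0992 FPKM. COL1A1 was at 0.0813 to 0.124 FPKM in the control libraries and at 0.169 to 0.386 FPKM in the shEphexin1 libraries. The groups did not overlap for KRT18, KRT8, EPCAM and COL1A1, and the part of these genes in the MAGE values was not tested.

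A small set of MAGE genes carried nearly all of the family's expression in these cells. Of the 37 genes, 18 were listed at 0 in all 6 libraries and 19 were above 0 in at least 1. Only 10 reached 1 FPKM in a library, 5 of type I (MAGEA3, MAGEA4, MAGEA6, MAGEA10 and MAGEA12) and 5 of type II (MAGED1, MAGED2, MAGEF1, MAGEH1 and NDNL2). All of these but MAGEH1 were at 10 FPKM or more in every library. The genes listed at 0 were 15 of type I, namely MAGEA2B, MAGEA9, MAGEA9B, MAGEA11, 8 of the 10 MAGE-B genes and all 3 MAGE-C genes, and 3 of type II, namely NDN, MAGED4 and MAGED4B. NDN encodes necdin, a growth suppressor of neurons that is imprinted on 15q11. MAGEA9 and MAGEA9B share 95.5% and 99.3% of the 100-base stretches of their transcripts with other genes, MAGED4 and MAGED4B 98.2% and 95.5%, and MAGEA2B 79.1%, in each case nearly all with the copy in the pair, so a 0 for these genes depends on how fragments were assigned. SNRPN and SNURF, which many cell types express and which lie in the same 15q11-q13 region as NDN, were also listed at 0 in all 6 libraries. Why they are at 0 was not tested, and a 0 in this table is not read as absence of expression.

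**Figure D1:**
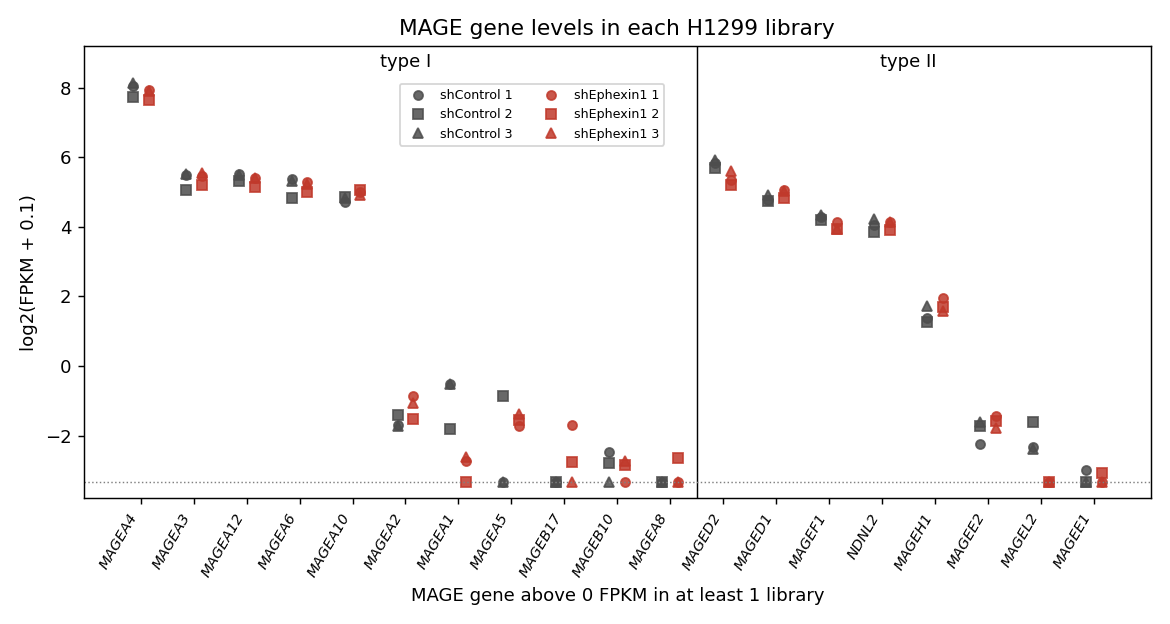
Level of each of the 19 MAGE genes above 0 in at least 1 library, as log2(FPKM + 0.1), with 1 symbol per library (grey, shControl; red, shEphexin1). The dotted line marks 0 FPKM, and type I and type II genes are ordered by their mean. MAGEA4 stands above the rest, 4 further MAGE-A genes lie close together, and MAGEA1 and MAGEL2 are the low genes whose groups are apart.

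MAGEA4, a cancer-testis antigen used as a target for engineered T cells, was the most abundant member. It was at 267, 213 and 280 FPKM with the control shRNA and at 244, 199 and 241 FPKM with the Ephexin1 shRNA. Its mean ranked 267 among the 19290 genes above 0 in the table, and it made up 61.5% of the summed FPKM of type I. The groups overlapped, and replicate 2 was the lowest in each. The log2 difference was -0.15 ± 0.14 (SE), with an adjusted p of 0.589 in limma and a 95% interval from -0.48 to 0.18, that is, from 0.718 to 1.13 of the control level.

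MAGEA3, MAGEA6 and MAGEA12 formed the next tier. MAGEA3 and MAGEA6 encode near-identical proteins that bind the ligase TRIM28 and direct it to the energy sensor AMPK. MAGEA3 was at 44.9, 33.3 and 45.9 FPKM with the control shRNA and at 43.99, 36.6 and 47.1 FPKM with the Ephexin1 shRNA. MAGEA6 was at 41.2, 28.6 and 39.8 FPKM with the control shRNA and at 38.9, 32.2 and 37.4 FPKM with the Ephexin1 shRNA. MAGEA12 was at 45.5, 39.6 and 45.1 FPKM with the control shRNA and at 41.96, 35.3 and 42.2 FPKM with the Ephexin1 shRNA. MAGEA6 was the lowest of the 3 in each of the 6 libraries, while MAGEA3 and MAGEA12 changed places between libraries. Each gene overlapped between the groups. Their log2 differences were 0.05 (95% interval -0.33 to 0.43), -0.00028 (-0.38 to 0.38) and -0.13 (-0.40 to 0.15), and their adjusted p values in limma were 0.901, 0.999 and 0.587. Of the 100-base stretches in MAGEA3 transcripts 39.1% also occur in MAGEA6, and of those in MAGEA6 46.2% occur in MAGEA3, so the split of fragments between the pair depends on how they were assigned. MAGEA4 and MAGEA12 share no such stretch with another gene.

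MAGEA10 was the last type I gene above 1 FPKM and the only tested member that was higher in shEphexin1 with no overlap. It was at 25.9, 29.2 and 28.1 FPKM with the control shRNA and at 31.9, 32.9 and 30.0 FPKM with the Ephexin1 shRNA. The log2 difference of 0.19 ± 0.10 (SE) had an adjusted p of 0.327 in limma and a p of 0.1 in a two-sided exact permutation test, the smallest that 3 libraries against 3 can give. A read-through gene joins it to MAGEA5, and 11.9% of its 100-base stretches are shared with that gene. The read-through row was at 0.604 to 1.14 FPKM with the control shRNA and at 0.455 to 1.07 FPKM with the Ephexin1 shRNA.

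The highly expressed MAGE-A genes lie in Xq28. In GRCh37, MAGEA4 spans chrX:151080967-151093643 on the plus strand, MAGEA10 chrX:151301782-151307050 on the minus strand, MAGEA6 chrX:151867214-151870825 on the plus strand, MAGEA12 chrX:151899293-151903206 on the minus strand and MAGEA3 chrX:151934652-151938240 on the minus strand. MAGEA2B, listed at 0, lies at chrX:151883075-151887096, between MAGEA6 and MAGEA12. Promoter windows of 300 bases that end just after the annotated start were taken from RefSeq on GRCh38.p14, in which 32 of the 37 genes had one (not MAGEA1, MAGEA5, MAGEA10, MAGEB17 and MAGEH1), and the most upstream window of each was used. The windows of the 4 abundant genes with one are shown, beside MAGEC2 as a gene of type I listed at 0 and MAGED2 as the most abundant gene of type II. Capitals mark 2 runs that the windows of MAGEA4, MAGEA3, MAGEA6 and MAGEA12 share, found after the windows had been seen. The window of MAGEA6, at chrX:152769640-152769939 on the minus strand, differs from that of MAGEA3 at 0 of 300 positions and is not repeated.
MAGEA4 promoter (chrX:151912224-151912523, plus strand): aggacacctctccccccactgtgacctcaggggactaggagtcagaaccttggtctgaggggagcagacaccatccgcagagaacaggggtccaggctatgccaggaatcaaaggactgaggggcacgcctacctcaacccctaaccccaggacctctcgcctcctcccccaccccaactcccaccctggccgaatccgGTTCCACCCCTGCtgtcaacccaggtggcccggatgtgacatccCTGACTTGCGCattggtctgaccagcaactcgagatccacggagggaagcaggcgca
MAGEA3 promoter (chrX:152698544-152698843, plus strand): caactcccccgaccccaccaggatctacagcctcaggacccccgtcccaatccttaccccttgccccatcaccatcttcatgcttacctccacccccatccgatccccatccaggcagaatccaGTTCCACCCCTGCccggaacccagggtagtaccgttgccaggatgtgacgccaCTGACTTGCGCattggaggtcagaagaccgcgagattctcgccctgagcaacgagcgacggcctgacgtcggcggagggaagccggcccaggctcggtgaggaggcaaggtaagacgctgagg
MAGEA12 promoter (chrX:152733507-152733806, plus strand): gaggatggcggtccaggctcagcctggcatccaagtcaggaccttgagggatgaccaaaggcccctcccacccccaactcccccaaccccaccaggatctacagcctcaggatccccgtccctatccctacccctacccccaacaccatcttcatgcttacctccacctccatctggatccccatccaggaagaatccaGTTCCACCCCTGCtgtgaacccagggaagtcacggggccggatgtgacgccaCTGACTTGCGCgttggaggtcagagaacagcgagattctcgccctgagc
MAGEC2 promoter (chrX:142205241-142205540, minus strand): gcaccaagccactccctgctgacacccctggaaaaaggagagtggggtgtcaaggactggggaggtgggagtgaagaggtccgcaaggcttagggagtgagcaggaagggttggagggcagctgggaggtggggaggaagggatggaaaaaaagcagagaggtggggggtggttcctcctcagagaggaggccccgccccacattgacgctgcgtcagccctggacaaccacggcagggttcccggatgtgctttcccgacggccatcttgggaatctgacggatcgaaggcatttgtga
MAGED2 promoter (chrX:54807495-54807794, plus strand): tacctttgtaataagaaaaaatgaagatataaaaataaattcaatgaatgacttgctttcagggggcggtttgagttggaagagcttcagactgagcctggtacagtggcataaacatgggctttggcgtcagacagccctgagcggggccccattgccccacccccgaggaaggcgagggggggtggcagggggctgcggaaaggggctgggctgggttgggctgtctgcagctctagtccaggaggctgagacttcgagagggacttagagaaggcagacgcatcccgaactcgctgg

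The run GTTCCACCCCTGC was found on either strand in 0.0199% of the 35116 promoter windows of all genes, and the genes with it were these 4 MAGE-A genes, CSAG1 and MPP7. The run CTGACTTGCGC was found in 0.0484% of windows, and among members also in those of MAGEA2 and MAGEA2B, which were at 0.450 FPKM or less in every library. The 5 other genes with it were ABCA3, CSAG1, CSAG3, MAGEA3-DT and MAGEA6-DT, of which CSAG3 was listed at 0 in all 6 libraries. Both runs were picked as the longest that the 4 windows share, so nothing is drawn from how rare they are elsewhere. CSAG1 lies 22 bp from MAGEA12, and whether its window holds the same stretch of DNA was not tested. Neither run was in a type II window. CpG dinucleotides, the sites of DNA methylation, numbered 10.5 at the median of 22 type I windows and 16.5 at the median of 10 type II windows, against 14.0 over all windows. The 4 type I windows of genes at 10 FPKM or more held 9 to 19 and the 15 of type I genes listed at 0 held 1 to 21, so the ranges overlapped. The windows of MAGED4, MAGED4B and NDN, listed at 0, held 22 to 35. The ETS-type motif CCGGAA, on either strand, was in 3 of 22 type I and 2 of 10 type II windows and in 17.2% of all windows. The CREB-type motif TGACGTCA was in 2 of 22 type I windows, those of the copies MAGEA9 and MAGEA9B, in 0 of 10 type II windows and in 1.85% of all.

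The summed FPKM of the 26 type I genes was 425, 345 and 440 in shControl and 402, 337 and 398 in shEphexin1. The means of 403 ± 51.4 and 379 ± 36.6 (SD, n = 3) differed by less than the spread between replicates, and the groups overlapped. The sum of the 11 type II genes was 123, 114 and 133 FPKM with the control shRNA and 113, 99.3 and 117 FPKM with the Ephexin1 shRNA, and these groups overlapped as well. MAGED2 and MAGED1 made up 42.2% and 25.6% of the type II sum. In both groups replicate 2 had the lowest sum of each type, and it was the lowest library of its own group, in both groups, for 7 of the 10 members that reached 1 FPKM. The summed FPKM of all genes in the table was 627462, 561335 and 651441 in shControl and 558737, 516079 and 587222 in shEphexin1. That total was also lowest in replicate 2 of each group, so this pattern is not particular to the MAGE genes. The MAGE sums were not scaled to the total. Calls that differed in replicates 1 and 3 alone are given beside the genes.

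**Figure D2:**
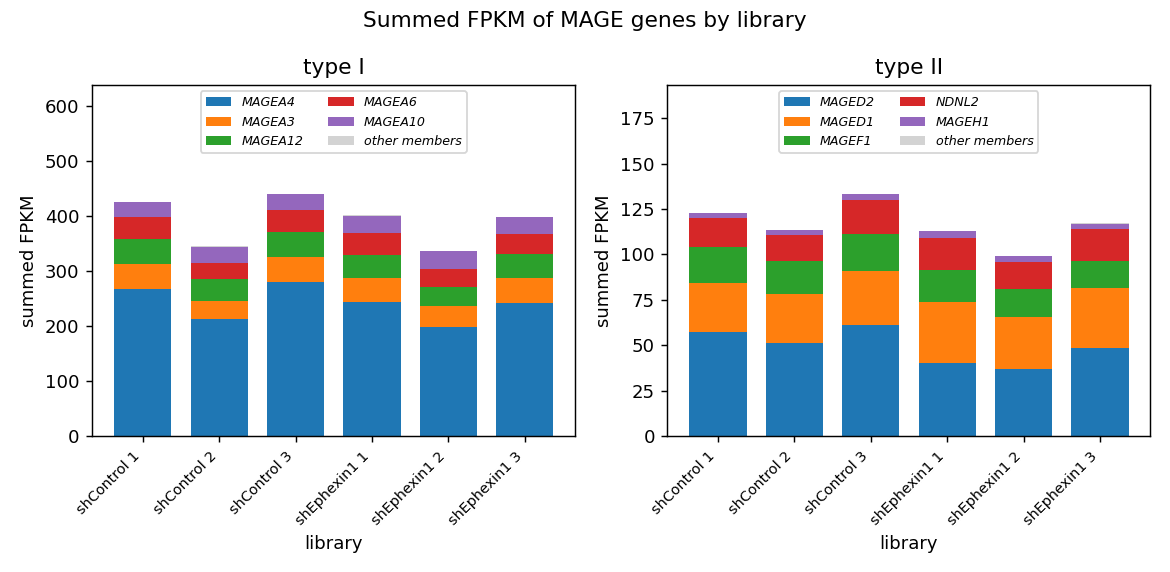
Summed FPKM of type I (left) and type II (right) MAGE genes in each of the 6 libraries, with bars stacked by gene and the vertical axis starting at 0. MAGEA4 takes the largest share of type I in every library. The second library of each group has the lowest sum, as it has over all genes in the table.

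Between the groups, 14 members passed the filter (0.1 FPKM or more in 3 or more libraries), 8 of type I and 6 of type II. With calls made in limma at an adjusted p no higher than 0.025 and a 2-fold or larger difference, 0 of the 14 were called higher and 0 were called lower in shEphexin1, against 0.893% and 0.999% of the 16020 genes tested across the table. At an unadjusted p under 0.05 there were 3 (MAGEA1, MAGED2 and MAGEF1), each lower in shEphexin1, against 23.3% of all genes tested. MAGEA1 passed the filter through the shControl libraries alone, and MAGEA5 reached it in all 3 shEphexin1 libraries and 1 shControl library, and nothing is drawn from counts over the members that passed. The groups did not overlap for 4 of the 14, against 28.3% of all genes tested. For 12 of the 14 the log2 difference was smaller than 0.5 in size, and the median over the 14 was 0.035, against -0.00934 over all genes tested. All 10 members that reached 1 FPKM were among these 12.

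**Figure D3:**
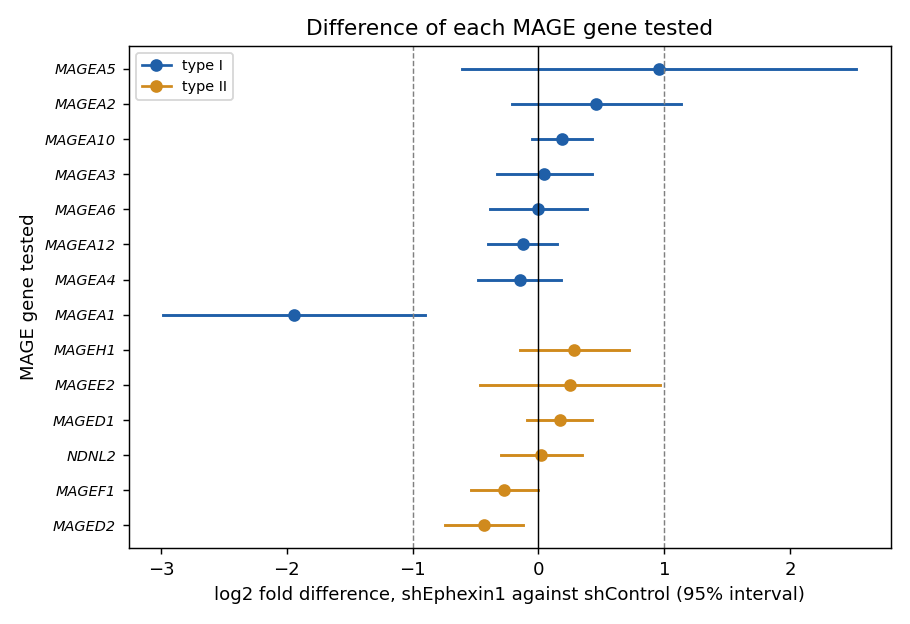
Log2 fold difference (shEphexin1 against shControl) of the 14 MAGE genes tested, as points with 95% intervals from limma (blue, type I; orange, type II). Dashed lines mark a 2-fold difference. The point for MAGEA1, at -1.94, lies beyond a dashed line, and the intervals of MAGEA1, MAGED2 and MAGEF1 lie below 0. MAGEA1 passed the filter through the shControl libraries alone, and nothing is drawn from its interval.

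MAGEA1, a type I antigen that gave the family its name, showed the largest difference of the 14. It was at 0.599, 0.187 and 0.597 FPKM with the control shRNA and at 0.0518, 0 and 0.0625 FPKM with the Ephexin1 shRNA. Every shEphexin1 library was below every shControl library, with shControl replicate 2 well below the other two. The log2 difference of log2(FPKM + 0.1) was -1.94 ± 0.44 (SE, 95% interval -2.98 to -0.90), with an adjusted p of 0.0440 in limma, which missed the threshold of 0.025. The exact permutation p was 0.1. These levels stood for an estimated 11, 3.2 and 9.1 fragments in shControl and 0.8, 0 and 0.87 in shEphexin1, so the size of the difference depended on the constant added, from -0.48 with 1 FPKM to -3.56 with 0.01 FPKM. Its test rests on a gene that passed the filter through the group in which it is high. MAGEA1 was called lower after correction for the GC content and length of transcripts (log2 difference -1.86, adjusted p 0.0116 in limma). It was also called in replicates 1 and 3 alone (-2.15, adjusted p 0.0145 in limma) and at a threshold of 0.05. Because of that filter, nothing is drawn from these calls or from the p values of MAGEA1. In bulk libraries, less RNA per cell and fewer cells with the transcript cannot be told apart. The gene lies in GRCh37 at chrX:152481520-152486116 on the minus strand and shares no 100-base stretch with another gene. Of its 10 tested neighbours within 500 kb, 0 were called, against 0.893% called higher and 0.999% called lower of all genes tested. With shares this small, 10 genes are too few to read the count. Their log2 differences ran from -0.404 to 1.17.

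The other low type I genes did not separate the groups. MAGEA2, a partner of TRIM28, was at 0.209, 0.277 and 0.204 FPKM with the control shRNA and at 0.450, 0.248 and 0.382 FPKM with the Ephexin1 shRNA (log2 difference 0.46, adjusted p 0.398 in limma). The 100-base stretches of MAGEA2 are shared with MAGEA2B to 85.8%, and MAGEA2B was listed at 0 throughout, so the pair is better read together. MAGEA5, now annotated as a pseudogene, was at 0, 0.456 and 0 FPKM with the control shRNA and at 0.206, 0.243 and 0.287 FPKM with the Ephexin1 shRNA, and 53.1% of its stretches are shared with the read-through gene. MAGEB10 was at 0 to 0.0822 FPKM, in 4 libraries above 0. MAGEB17 was above 0 in shEphexin1 replicates 1 and 2, at 0.206 and 0.0472 FPKM, and MAGEA8 in shEphexin1 replicate 2, at 0.0599 FPKM. These 3 genes were under the filter and were not tested.

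Among type II genes, MAGED2 was the most abundant and MAGED1 the next. MAGED2 is needed for salt transport in the fetal kidney, and its loss causes a transient form of antenatal Bartter syndrome. It was at 57.1, 51.3 and 60.9 FPKM with the control shRNA and at 40.5, 37.0 and 48.5 FPKM with the Ephexin1 shRNA. Every shEphexin1 library was below every shControl library. The fitted level in shEphexin1 was 0.742 of that in shControl (95% interval 0.599 to 0.919, log2 difference -0.43 ± 0.13), with an adjusted p of 0.101 in limma and an exact permutation p of 0.1, so the difference did not pass the threshold and was smaller than 2-fold. The median log2 difference of the 377 other X-linked genes with a mean of at least 1 FPKM was -0.11. MAGED1, or NRAGE, a partner of the p75 neurotrophin receptor, was at 27.2, 26.9 and 30.2 FPKM with the control shRNA and at 33.3, 28.6 and 32.9 FPKM with the Ephexin1 shRNA. Its groups overlapped, and the log2 difference was 0.17 (95% interval -0.09 to 0.43, adjusted p 0.427 in limma). The difference between MAGED1 and MAGED2 was not tested.

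MAGEF1 and NDNL2 encode partners of the ligase NSMCE1. MAGEF1 directs NSMCE1 to MMS19, a factor of the cytosolic iron-sulfur cluster pathway, and NDNL2 (NSMCE3) is the MAGE subunit of the SMC5/6 complex, which acts in DNA repair. MAGEF1, on chromosome 3, was at 19.6, 18.3 and 20.1 FPKM with the control shRNA and at 17.6, 15.3 and 15.1 FPKM with the Ephexin1 shRNA. The groups did not overlap. The log2 difference was -0.27 ± 0.11 (SE, adjusted p 0.206 in limma, exact permutation p 0.1), which is a level of 0.828 of the control (95% interval 0.689 to 0.996). NDNL2, on chromosome 15, was at 16.4, 14.4 and 18.6 FPKM with the control shRNA and at 17.4, 14.9 and 17.6 FPKM with the Ephexin1 shRNA, with overlapping groups and an interval from 0.814 to 1.27 of the control level.

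The remaining type II genes were low. MAGEH1 was at 2.52, 2.31 and 3.19 FPKM with the control shRNA and at 3.82, 3.12 and 2.89 FPKM with the Ephexin1 shRNA (log2 difference 0.28, adjusted p 0.416 in limma). MAGEE2 was at 0.110 to 0.229 FPKM with the control shRNA and at 0.189 to 0.269 FPKM with the Ephexin1 shRNA, and MAGEE1, under the filter, was at no more than 0.02499 FPKM in any library. MAGEL2 lies beside NDN in the imprinted region of 15q11, at chr15:23888696-23893014 in GRCh37, and encodes a partner of the ligase TRIM27 in endosomal sorting. It was at 0.101, 0.230 and 0.0934 FPKM in shControl, an estimated 4.9, 11 and 3.9 fragments, and was listed at 0 in all 3 shEphexin1 libraries. MAGEL2 was under the filter. Where the filter was left out its adjusted p in limma was 0.0433, and with a filter of 0.1 FPKM in 2 libraries it was 0.1, so it was not called. MAGEL2 entered both fits through the shControl libraries alone, and nothing is drawn from these p values. Of its 100-base stretches 49.5% are shared with the gene AC124309.1.

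**Figure D4:**
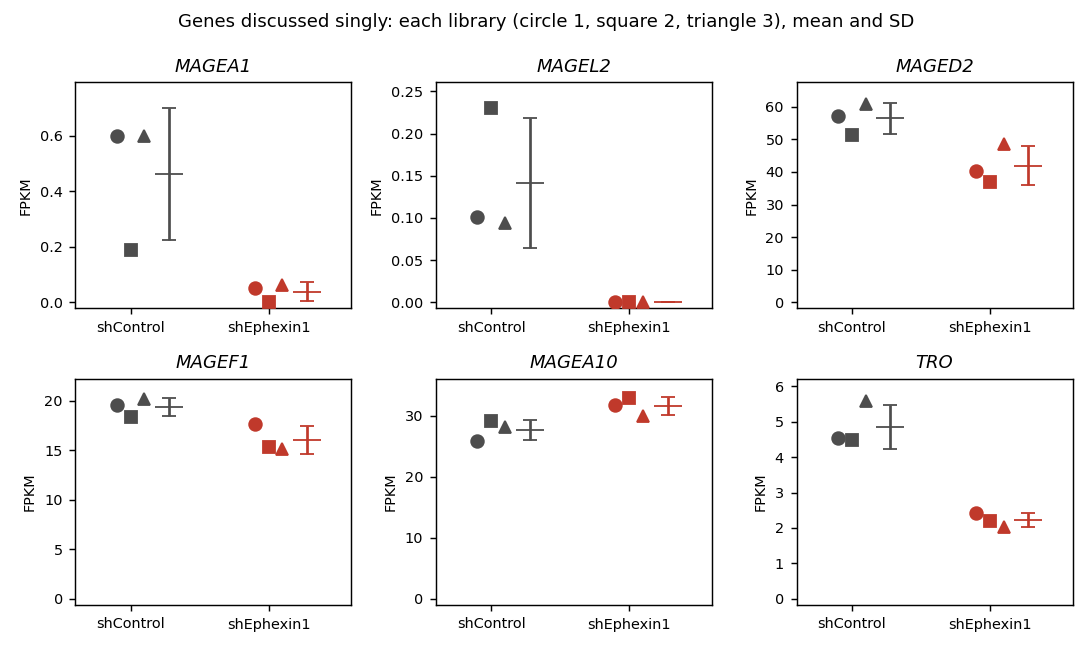
FPKM of 6 genes in each library (circle, replicate 1; square, replicate 2; triangle, replicate 3), with the mean and SD of the 3 libraries beside the points and each axis including 0. The 3 shEphexin1 libraries are below the 3 shControl libraries for MAGEA1, MAGEL2, MAGED2, MAGEF1 and TRO and above them for MAGEA10.

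Of the genes near the MAGE genes, 65 within 500 kb of a member above 0 were tested. Of these, 3 were called higher and 1 lower, against 0.893% and 0.999% of all genes tested, and their median log2 difference was -0.088. The gene called lower was TRO, which lies 104447 bp from MAGED2. It encodes trophinin, an adhesion protein with a MAGE homology domain that is also known as MAGED3, and its symbol falls outside the rule. TRO was at 4.53, 4.48 and 5.58 FPKM with the control shRNA and at 2.43, 2.198 and 2.02 FPKM with the Ephexin1 shRNA. Every shEphexin1 library was below every shControl library, and the log2 difference was -1.09 ± 0.16 (SE), with an adjusted p of 0.0115 in limma. TRO kept its sign in 20 alternatives (log2 difference -1.16 to -0.86) and was called in 14, and with 1 library left out at a time it was called in 1 of 6 fits, the one without shEphexin1 replicate 2. It was set beside the members after its value had been seen. The genes called higher were GABRE, a GABA receptor subunit gene 27953 bp from MAGEA4, at 2.25 against 4.88 FPKM (log2 difference 1.10, adjusted p 0.0146), GRPR, the gastrin-releasing peptide receptor gene 13963 bp from MAGEB17, at 0.516 against 2.11 FPKM (1.90, adjusted p 0.0218), and C3orf70, 364774 bp from MAGEF1, at 0.131 against 0.642 FPKM (1.68, adjusted p 0.0157), each in limma. With 1 library left out at a time, GABRE was called in 1 of 6 fits (without shEphexin1 replicate 2) and GRPR and C3orf70 in 0 of 6. MAGEA4, the nearest member to GABRE, did not pass the test.

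Of the listed ligases and partners of MAGE proteins, 7 of 9 and 5 of 9 reached 1 FPKM in a library. In either direction 0 of those tested were called, against 0.893% called higher and 0.999% called lower of all genes tested. With shares this small, these lists are too short to read the count. Of 9 genes listed as MAGE-RING ligases and their cofactors 8 were tested, with a median log2 difference of -0.33, against -0.00934 over all genes tested. TRIM28, the ligase bound by MAGEA3 and MAGEA6 and a silencer of retroelements, was at 105, 77.4 and 117 FPKM with the control shRNA and at 82.6, 61.3 and 102 FPKM with the Ephexin1 shRNA, with overlapping groups. NSMCE1, the ligase of MAGEF1 and NDNL2, was at 44.04, 38.9 and 44.2 FPKM with the control shRNA and at 31.9, 27.9 and 36.7 FPKM with the Ephexin1 shRNA. Its groups did not overlap, and the log2 difference of -0.40 had an adjusted p of 0.117 in limma. TRIM27, the ligase of MAGEL2, had means of 40.3 and 41.4 FPKM, with overlapping groups.

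Of 9 targets and binding partners 7 were tested, with a median log2 difference of -0.19. MMS19, the target of MAGEF1 and NSMCE1, was at 49.0, 39.3 and 49.8 FPKM with the control shRNA and at 31.8, 26.4 and 34.1 FPKM with the Ephexin1 shRNA. These groups did not overlap, and the log2 difference was -0.58 ± 0.15 (SE) with an adjusted p of 0.0589 in limma. MAGEF1, NSMCE1 and MMS19 all had lower means in shEphexin1 without passing the test, which is also the direction of the other 2 abundant partners, PRKAA1 (26.8 against 20.7 FPKM, overlapping) and E2F1 (21.3 against 19.5 FPKM, overlapping). PRKAA1 encodes the AMPK subunit that MAGEA3 and MAGEA6 direct TRIM28 to, and E2F1 a cell cycle transcription factor. All 6 genes of the SMC5/6 list were tested, with a median of -0.29. SMC5 and SMC6, which encode its core subunits, had means of 23.3 against 18.1 FPKM and of 15.2 against 21.1 FPKM. NSMCE4A, at 27.1 against 19.6 FPKM, had a log2 difference of -0.47 and an adjusted p of 0.0421 in limma. EID3 went the other way without overlap, at 4.35 against 6.14 FPKM (log2 difference 0.49, adjusted p 0.0913 in limma). Of the 6 genes, 4 had a log2 difference below 0.

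Among cancer-testis genes outside the family 0 of those tested were called, against 0.893% called higher and 0.999% called lower of all genes tested. With shares this small, these lists are too short to read the count. Of 76 other X-linked cancer-testis genes in the table, 61 were listed at 0 in all 6 libraries and 7 were tested, with a median log2 difference of -0.21. The most abundant was CSAG1, at 30.9 ± 2.92 against 26.7 ± 1.53 FPKM (SD, n = 3), which lies beside MAGEA12 and is 1 of the 2 other genes with the longer run. PASD1 and GAGE1 followed, at 17.3 against 14.7 FPKM and at 7.34 against 5.41 FPKM. In all 3 genes every shEphexin1 library was below every shControl library, and the adjusted p values in limma were 0.333, 0.284 and 0.0863. Groups without overlap, in either direction, were found for 28.3% of all genes tested. PLAC1, a placental gene named after its value had been seen, was in the other direction, at 1.83 ± 0.536 against 3.92 ± 0.851 FPKM (log2 difference 1.07, adjusted p 0.0525 in limma). Of 25 autosomal cancer-testis genes 9 were listed at 0 and 10 were tested, with a median of -0.04. PRAME was at 62.4 against 71.5 FPKM, the meiotic gene HORMAD1 at 29.8 against 35.5 FPKM and DDX43 at 4.75 against 3.58 FPKM.

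Genes of DNA methylation and germline gene silencing were expressed with 1 exception of 30, and 29 were tested. Of these 0 were called, against 0.893% called higher and 0.999% called lower of all genes tested, which is too few genes to read the count. Their median log2 difference was -0.06. HDAC1, a histone deacetylase, was at 68.5 against 55.8 FPKM (adjusted p 0.151 in limma) and MBD3, a subunit of the NuRD repressor complex, at 66.4 against 56.2 FPKM. UHRF1, which recruits the maintenance methyltransferase to newly replicated DNA, was at 55.2 ± 12.7 against 59.9 ± 12.2 FPKM (SD, n = 3). DNMT1, that methyltransferase, was at 51.6 against 55.1 FPKM, with overlapping groups (adjusted p 0.694 in limma). In the 15q11-q13 region around MAGEL2 and NDN, 8 of 13 listed genes were tested, with a median of 0.02. Of these 0 were called, which beside the same shares is too few genes to read. SNURF, SNRPN and ATP10A, 3 of the 13, were listed at 0 in all 6 libraries. MKRN3, the imprinted gene next to MAGEL2, was at 7.38, 6.71 and 7.73 FPKM with the control shRNA and at 8.33, 5.90 and 7.91 FPKM with the Ephexin1 shRNA. MAGEL2 was listed at 0 with the Ephexin1 shRNA, against only an estimated 3.9 to 11 fragments with the control shRNA. NIPA2, CYFIP1 and UBE3A, the most abundant genes of the region, had means of 67.1 against 68.5 FPKM, 57.0 against 59.1 FPKM and 32.2 against 31.5 FPKM, all with overlapping groups.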

How the data were processed

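RNA-seq was analysed in 3 shControl and 3 shEphexin1 libraries of H1299 cells, grouped by their titles. Per the study's methods and the labels, total RNA extracted with TRIzol was made into TruSeq stranded libraries and sequenced on a NovaSeq, and the authors processed the reads with bcl2fastq 2.20, Bowtie, TopHat2 2.0.13 and Cufflinks 2.2.1 on GRCh37/hg19. The deposited values are FPKM per gene and library, which the authors calculated with geometric library normalization. The gene annotation used is not given in the sources used here, and fragments from near-identical copies can be split between them. The table holds no counts, so the depth behind a value was estimated from the values of single fragments in genes of 1500 to 8000 bases with 1 transcript.

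Genes that reached 0.1 FPKM in 3 or more libraries were compared as log2(FPKM + 0.1) with limma 3.58.1 (eBayes with trend after lmFit) under R 4.3.3, which left out 10235 genes. P values were adjusted by the Benjamini-Hochberg method over 16020 genes. Fold changes are on the log2(FPKM + 0.1) scale and understate the change of low genes. Exact permutation tests on FPKM were two-sided (SciPy 1.17.1). The script was tested on simulated data. Positions and transcripts came from GENCODE release 44 on GRCh37, matched by symbol for 23759 of 26255 genes, 1337 through RefSeq synonyms. Of each member's transcripts, all 100-base stretches were compared with those of all other genes, in place of a planned comparison of proteins. Every member that reached 1 FPKM in a library was named by its values and the others by their range. Of the other lists, the up to 3 genes with the highest mean FPKM and any gene called were named. SMC6, EID3, DNMT1, MKRN3, PLAC1, SNRPN and SNURF were added after their values had been seen. The members, lists and alternatives were chosen with earlier results of these data known. Python 3.11.15, pandas 2.3.3 and matplotlib 3.10.9 were used for the annotation and plots. One marker gene of the cell line is not reported here.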

Additional observations from a re-analysis of the deposited data

How the results depend on the processing

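Of 378 values recomputed under alternatives for 14 genes and 4 counts, 328 kept their direction and their side of the threshold or stayed close, 5 passed the threshold, 14 changed sign and 31 counts or values moved. The number of MAGE genes called higher was 0 under every alternative. The number called lower was 1 (MAGEA1) instead of 0 with the replicate number as a block (adjusted p 0.00877 in limma), after correction for the GC content and length of transcripts, with that correction and the block together (adjusted p 0.00788), with a term for replicate 2 added after the data had been seen (0.00505), in replicates 1 and 3 alone, and at a threshold of 0.05. Each of these calls rests on a gene that passed the filter through the shControl libraries alone, and nothing is drawn from them. The number called lower was 0 with a filter of 0.1 FPKM in 2 libraries, also added after the data had been seen. With each library left out in turn it was 0, and the log2 difference of MAGEA1 ranged from -2.37 to -1.72. Over its alternatives its adjusted p ranged from 0.00505 to 0.181. That of MAGED2 ranged from 0.00179 to 0.304, with a fold under 2 throughout. For MAGEA10 the adjusted p ranged from 0.00776 to 0.68, also with a fold under 2 throughout.

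The same-numbered libraries of the groups correlated in their deviations from the group means at 0.0914, 0.43 and 0.328 for replicates 1, 2 and 3, and each correlated best with its own number, but the labels do not say that a number marks a pair. With the replicate block, 309 genes were called higher and 247 lower, against 143 and 160 without it. The counts over all genes also moved to 73 and 66 with a pseudocount of 1 FPKM, to 281 and 243 with the GC and length correction, and to 312 and 252 with the term for replicate 2. The genes called higher came to 286 with the GC correction and block, to 234 in replicates 1 and 3 alone and to 239 at an adjusted p of 0.05. The genes called lower came to 105 with a filter of 1 FPKM and to 345 with no fold threshold. With 1 library left out, 23 to 159 were called higher and 37 to 157 lower.

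Signs turned only for members with differences near 0. MAGEA4 came to 0.0656 with quantile normalization, and MAGEA6 to 0.0108 with median centring, 0.0905 with quantile normalization, 0.108 with the median of its chromosome subtracted and 0.0699 with the GC correction, with or without the block. With 1 library left out, MAGEA3 ranged from -0.102 to 0.152, MAGEA6 from -0.167 to 0.0953 and NDNL2 from -0.0697 to 0.114. The cause was not tested. Tests on read counts were not run, since the table holds none, and the low depth behind MAGEA1 and MAGEL2 limits how precisely their differences are known.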
